A study of Mus musculus with 18 samples.

Results

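The doublecortin gene Dcx and 9 further genes of young neurons were followed in the postnatal mouse cochlear nucleus through 19 probe sets of an oligonucleotide array (MOE430A) that holds 22690 probe sets. Members were taken by probe set identifier, with 3 for Dcx, 1 each for Tubb3, Tubb2b, Stmn1, Gap43 and Nnat, 2 for Stmn2, and 3 each for Marcksl1, Sox4 and Cd24a. The gene names come from that list, since the tables used here do not pair probe sets with genes. All 19 had a mean signal above the minimum for testing, as did 15296 probe sets of the array.

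Young neurons migrate and grow axons while their microtubules are kept dynamic. Doublecortin binds and stabilises microtubules in migrating neurons, beta-tubulins such as those of Tubb3 and Tubb2b are their building blocks, and the stathmins of Stmn1 and Stmn2 bind free tubulin and destabilise microtubules. Gap43 and Marcksl1 encode membrane-associated proteins of the growth cone and the actin cortex, Sox4 encodes a transcription factor of differentiating neuroblasts, and Cd24a encodes a surface glycoprotein. The cochlear nucleus receives the auditory nerve, and in mice hearing begins within the period studied.

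Cochlear nuclei of C57BL/6J mice were taken on postnatal days 7, 14 and 21 (P7, P14 and P21), as 3 arrays for P7, 2 for P14 and 3 for P21. Every array carried RNA of 5 pups combined, with no genotype or treatment other than age set apart by the labels. The labels do not say whether the pools came from separate animals, so the p-values measure the spread between these samples, which may in part be technical. Values are the deposited signals, scaled to a common level. Array medians were lowest at P14, at 98.7 and 98.8, against 102.55 to 110.5 on the others. The P14 arrays stood apart in the ratio of the 3′ to the 5′ Gapdh control, 0.782 and 0.791 against 0.818 to 0.904 on the others, and in the 5′ signal of 18S ribosomal RNA, 43.6 and 38.6 against 155 to 6137 on the others. The part of either in the results on P14 was not tested. Bacterial control transcripts that were not found on an array gave signals of up to 26.6 there, which serves below as a measure of background. Signals of different probe sets are not compared as levels.

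Sequence upstream of the start was at hand for 5 of the 10 genes (RefSeq, GRCm38.p6), and 3 of these, Dcx, Sox4 and Tubb3, are shown. They were picked by the values of their courses, and the difference between genes was not tested. A link between sequence and course was not tested either. Each line gives the 250 bases before the start, 5′ to 3′ on the gene's strand, at chrX:143933125-143933374 (minus) for Dcx, chr13:28953700-28953949 (minus) for Sox4 and chr8:123411303-123411552 (plus) for Tubb3. The table holds 2 starts for Dcx, and the one with a motif match is shown. Capitals mark any match, on either strand, to AACAAAG (a SOX-type motif), CAGCTG (an E-box) or GGGCGG (a GC box).
Dcx: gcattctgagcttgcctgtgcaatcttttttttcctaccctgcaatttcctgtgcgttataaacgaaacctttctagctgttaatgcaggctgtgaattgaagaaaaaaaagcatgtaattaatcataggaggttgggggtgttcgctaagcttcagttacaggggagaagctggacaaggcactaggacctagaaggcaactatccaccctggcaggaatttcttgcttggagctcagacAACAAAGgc
Sox4: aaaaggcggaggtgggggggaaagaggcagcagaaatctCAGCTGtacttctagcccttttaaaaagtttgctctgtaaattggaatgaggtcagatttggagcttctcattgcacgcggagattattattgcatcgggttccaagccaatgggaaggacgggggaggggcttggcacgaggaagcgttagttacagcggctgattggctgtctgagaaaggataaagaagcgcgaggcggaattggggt
Tubb3: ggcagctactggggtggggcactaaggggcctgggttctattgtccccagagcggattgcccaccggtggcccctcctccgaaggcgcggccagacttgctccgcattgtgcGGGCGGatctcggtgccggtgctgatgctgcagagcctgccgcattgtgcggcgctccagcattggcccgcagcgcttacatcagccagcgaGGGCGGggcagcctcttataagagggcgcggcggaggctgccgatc
The Dcx sequence held AACAAAG from base -9, counted back from the start. The Sox4 sequence held CAGCTG from base -211, and that of Tubb3 held GGGCGG from bases -138 and -46. Of 32851 windows of 300 bases in the same table, each running to 50 bases past a start, 5.85% held AACAAAG, 16.3% held CAGCTG and 35.7% held GGGCGG. GC content over the full window was 44.7% for Dcx, 52.0% for Sox4 and 67.3% for Tubb3, with a median of 52.7% over all windows. A match of letters is a description of the sequence and not a site of binding.

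Comparing P21 with P7 asked how far these genes had changed over the whole period. Of the 19 probe sets, 15, belonging to 9 of the 10 genes, were lower at P21 than at P7 (limma, adjusted p under 0.05), while 21.5% of all probe sets tested were lower. The 3 probe sets of Cd24a were higher, as were 17.1% of all probe sets, and 1 probe set of Dcx did not pass. A fall of at least 1 on the log2 scale was found for 11 of the 19 and for 4.83% of all probe sets. In 15 of the 19 every P21 array lay below every P7 array, which was so for 27.4% of all probe sets. The median log2 change was -1.31 over the 19 and -0.02 over all probe sets tested. Because the members were chosen with earlier results of these data known, such shares, here and below, describe the members and test nothing about them as a set. In tissue RNA, fewer cells of a type and less RNA per cell cannot be told apart.

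**Figure D1:**
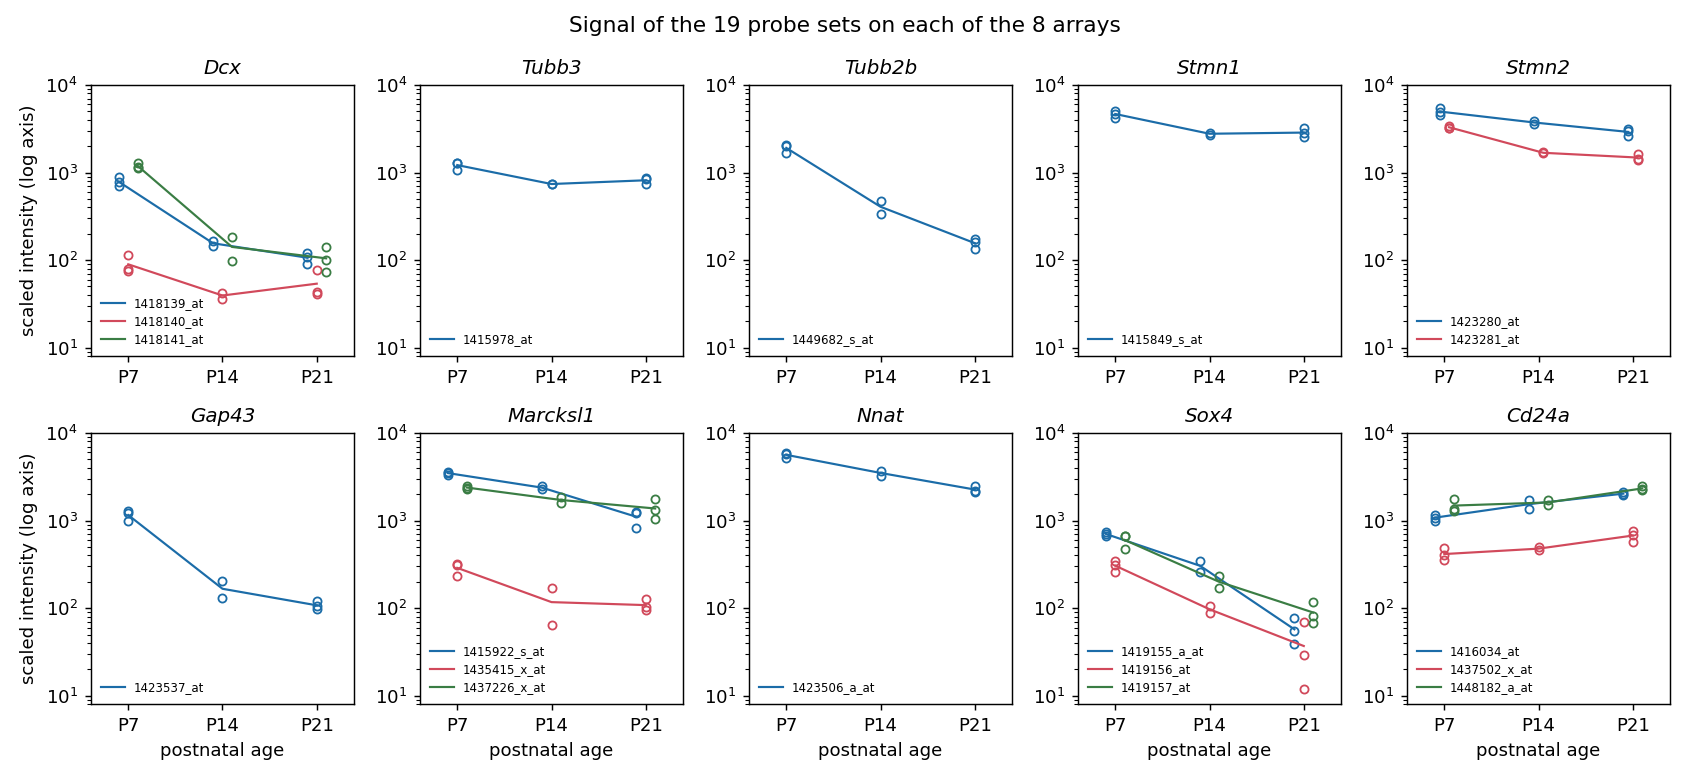
Deposited signal (log axis) of the 19 probe sets at P7, P14 and P21, with 1 panel per gene, points for single arrays and lines through the means of each age. Dcx, Tubb2b, Gap43 and Sox4 drop to 8.15% to 14.9% of their P7 means at P21, apart from the dim Dcx probe set 1418140_at, while the 3 Cd24a probe sets end above their P7 means.

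Dcx, the gene of the microtubule-binding protein doublecortin, fell most between P7 and P14. The probe set 1418141_at had signals of 1134, 1144 and 1294 at P7, of 97.7 and 185 at P14, and of 74.1, 99.8 and 140.4 at P21. All P14 and P21 arrays lay far below the P7 arrays, and the P14 and P21 arrays overlapped. The P21 mean was 105 ± 33.4 (SD, n = 3) and the P7 mean 1191 ± 89.8 (SD, n = 3), so that P21 stood at 8.80% of P7, a log2 change of -3.40 (limma adjusted p = 5.41e-06, SE 0.24). At P14 the mean was 142 ± 61.9 (SD, n = 2), and its log2 change from P7, -3.02 (limma adjusted p = 5.19e-05, SE 0.26), was the most negative of the 15296 tested. The later step from P14 to P21 was -0.37 (95% interval -0.96 to 0.21, adjusted p = 0.474).

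The second Dcx probe set, 1418139_at, gave 879, 694 and 781 at P7, 147 and 165 at P14, and 89.7, 122 and 108 at P21. Here all P21 arrays also lay below both P14 arrays, and the P21 mean was 13.6% of the P7 mean (log2 change -2.74, SE 0.14, limma adjusted p = 8.51e-07). The change from P7 to P14 was -2.24 (SE 0.15, adjusted p = 1.70e-05), and that from P14 to P21 was -0.50 (95% interval -0.85 to -0.16, adjusted p = 0.114). Both probe sets placed most of the fall of Dcx between P7 and P14.

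Signals of the third Dcx probe set, 1418140_at, were near background, at 114, 79.5 and 75.1 at P7, 36.3 and 42.6 at P14, and 43.0, 77.3 and 41.2 at P21. P21 replicate 2 lay within the P7 range. The change from P7 to P21 was -0.64 (SE 0.24) and did not pass (limma adjusted p = 0.0561), and without P21 replicate 2 it was -0.88 (adjusted p = 0.0121). P14 was lower than P7 by -0.96 (adjusted p = 0.0221), a call that was lost when P7 replicate 1 (-0.79) or either P14 array was left out.

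Among the tubulins, Tubb2b fell deeply and Tubb3 modestly. Tubb2b, an isotype needed for the migration of cortical neurons, was read by a probe set (1449682_s_at) whose suffix marks probes that several transcripts can share. Its signals were 2003, 2077 and 1650 at P7, 336 and 477 at P14, and 173, 133 and 162 at P21. The 3 ages did not overlap. At 156 ± 20.8 (SD, n = 3), the P21 mean was 8.18% of the P7 mean of 1910 ± 228 (SD, n = 3), a log2 change of -3.51 (limma adjusted p = 5.77e-07, SE 0.15). On that log2 scale it was the largest fall among the 19 and the 7th most negative of all tested. As a share of the P7 mean, Sox4 1419155_a_at fell as far, to 8.15%. Tubb2b was lower in both intervals, by -2.21 (SE 0.17, adjusted p = 3.08e-05) at P14 against P7 and by -1.30 (SE 0.17, adjusted p = 0.0148) at P21 against P14. The later call was lost without P14 replicate 2 (-1.05) and when the bacterial control found on an array was a term of the fit (-1.17).

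Tubb3, the neuron-specific beta-tubulin often stained to mark neurons, had signals of 1287, 1297 and 1064 at P7, 733 and 746 at P14, and 875, 731 and 841 at P21. Each later array lay below the P7 arrays, and P14 and P21 overlapped. The P21 mean was 67.1% of the P7 mean (log2 change -0.57, SE 0.11, limma adjusted p = 0.00216) and the P14 mean 60.8% of it (-0.70, SE 0.12, adjusted p = 0.002). From P14 to P21 the change was 0.14 (95% interval -0.13 to 0.40, adjusted p = 0.576). Among the 19, Tubb3 alone lost its call at P21 against P7 when the bacterial control found on an array was a term of the fit (-0.36, adjusted p = 0.194).

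The stathmin genes kept between 45.1% and 61.4% of their P7 means at P21. Stmn1 (1415849_s_at), the general stathmin of dividing and young cells, had 4219, 5073 and 4677 at P7, 2681 and 2861 at P14, and 2517, 3200.4 and 2856 at P21. As for Tubb2b, the suffix marks probes that several transcripts can share. The P7 arrays stood above all others, and the P14 pair lay inside the P21 range. P21 was 61.4% of P7 (log2 change -0.70, SE 0.11, limma adjusted p = 0.000576), and from P14 to P21 the change was 0.04 (95% interval -0.23 to 0.31), of which the sign turned in some of the alternatives.

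Stmn2, the stathmin of growth cones, had signals of 4478, 5468 and 4968 at P7, 3856 and 3601 at P14, and 2644, 2976 and 3108 at P21 for 1423280_at. The other probe set, 1423281_at, had 3264, 3358 and 3242 at P7, 1710.2 and 1650 at P14, and 1419, 1407 and 1622 at P21. In both the 3 ages were separate and in falling order. The first ended at 58.5% of P7 (log2 change -0.77, limma adjusted p = 0.000206) and the second at 45.1% (-1.15, adjusted p = 7.29e-06). At P14 they differed more, at 75.0% of the P7 mean for the first (-0.41, SE 0.11, adjusted p = 0.0201) and 51.1% for the second (-0.96, SE 0.09, adjusted p = 0.000104). The call of the first at P14 was lost without P7 replicate 2 (-0.34), P7 replicate 3 (-0.41) or either P14 array (-0.46 without replicate 1 and -0.36 without replicate 2).

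Gap43, the growth-cone substrate of protein kinase C, followed a course close to that of these 2 Dcx probe sets (1418139_at and 1418141_at). Its signals were 1207, 1271 and 989 at P7, 131 and 202 at P14, and 120.1, 105 and 97.8 at P21. The P21 arrays lay just under the P14 arrays, and both far below P7. The P21 mean of 108 ± 11.3 (SD, n = 3) was 9.33% of the P7 mean of 1155 ± 148 (SD, n = 3), a log2 change of -3.28 (limma adjusted p = 8.51e-07, SE 0.16). At P14 Gap43 had reached 14.4% of the P7 mean, with a log2 change of -2.73 (SE 0.18, adjusted p = 1.50e-05) that ranked 7th from the most negative of all tested. From P14 to P21 the change was -0.55 (95% interval -0.95 to -0.14, adjusted p = 0.144).

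Marcksl1, a relative of the MARCKS protein that links membrane and actin, was read by 3 probe sets. The suffix of 1415922_s_at marks probes that several transcripts can share. For 1415922_s_at the signals were 3340.4, 3491 and 3621 at P7, 2302 and 2449 at P14, and 1263, 821 and 1229 at P21. The ages were separate and in falling order. The log2 change was -0.55 (limma adjusted p = 0.0288, SE 0.16) at P14 against P7 and -1.12 (SE 0.16, adjusted p = 0.0151) at P21 against P14, with P21 at 31.7% of P7. The difference between the steps did not pass (first minus second 0.57, 95% interval -0.08 to 1.22, adjusted p = 0.249). The call at P14 was lost without P7 replicate 2 (-0.55), P7 replicate 3 (-0.52) or either P14 array (-0.51 without replicate 1 and -0.59 without replicate 2).

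The dim Marcksl1 probe set 1435415_x_at had 319.9, 231 and 314 at P7, 63.9 and 170.5 at P14, and 104, 95.1 and 126 at P21. Its P14 arrays lay on either side of the P21 arrays. P21 was 37.6% of P7 (log2 change -1.31, SE 0.28, limma adjusted p = 0.00393), and P14 against P7 was -1.33 (SE 0.31, adjusted p = 0.00934), which without P14 replicate 1 was -0.70 (adjusted p = 0.0723). The probe set 1437226_x_at had 2314, 2470 and 2365 at P7, 1589 and 1847 at P14, and 1319.6, 1043 and 1758 at P21, again with P14 and P21 overlapping. It ended at 57.6% of P7 (-0.82, SE 0.16, adjusted p = 0.0024) and did not pass at P14 against P7 (-0.47, 95% interval -0.87 to -0.08, adjusted p = 0.0708). For these last 2 the difference between the steps did not pass either, at -1.36 (adjusted p = 0.156) for 1435415_x_at and -0.12 (adjusted p = 0.842) for 1437226_x_at. Their suffix marks probes that resemble other sequences, so other transcripts may add to their signals.

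Nnat, the gene of neuronatin, a small membrane proteolipid of the endoplasmic reticulum in developing brain, stepped down by like amounts in both intervals. It had 5242, 5843 and 5795 at P7, 3269 and 3726 at P14, and 2183, 2138 and 2461 at P21, with no overlap between ages. P14 stood at 62.2% of P7 (log2 change -0.69, SE 0.11, limma adjusted p = 0.00107), P21 at 64.6% of P14 (-0.63, SE 0.11, adjusted p = 0.0244) and P21 at 40.2% of P7 (-1.31, SE 0.09, adjusted p = 6.04e-06). The call at P21 against P14 was lost in 6 of the 15 alternatives. The difference between the 2 steps was -0.06 (95% interval -0.48 to 0.36).

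Sox4, a transcription factor of the SoxC group that acts in differentiating neuroblasts, was lower at P21 than at P7 by all 3 of its probe sets, and lower at P21 than at P14 by 2 of them. The signals of 1419155_a_at were 747, 668 and 695 at P7, 261 and 348 at P14, and 38.7, 55.4 and 77.9 at P21. No ages overlapped. The P14 mean was 43.3% of the P7 mean (log2 change -1.19, SE 0.22, limma adjusted p = 0.00271), and the P21 mean of 57.3 ± 19.7 (SD, n = 3) was 18.8% of the P14 mean of 304 ± 61.2 (SD, n = 2). That second step, -2.21 (SE 0.22, adjusted p = 0.0042), was the 11th most negative of all tested. Its call was lost without P14 replicate 2 (-2.01) and with the bacterial control as a term of the fit (-2.69). Over the whole period the change was -3.39 (SE 0.19, adjusted p = 1.70e-06). The P21 signals of this probe set were dim, so both sizes depend on the processing. Over the alternatives the second step ran from -2.69 to -1.73 and the whole change from -3.91 to -2.83.

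For 1419157_at, Sox4 gave 469, 669 and 662 at P7, 169 and 231 at P14, and 68.5, 81.8 and 117 at P21. For 1419156_at it gave 258, 343 and 315 at P7, 107 and 87.3 at P14, and 29.5, 11.8 and 69.6 at P21. In both the ages were separate, although for 1419156_at the P21 arrays reached down to background and differed widely. The change from P7 to P21 was -2.60 (limma adjusted p = 1.03e-05, SE 0.20) for the first and -2.85 (SE 0.35, adjusted p = 0.000147) for the second. From P14 to P21 it was -1.08 (SE 0.23, adjusted p = 0.046) for the first and -1.32 (SE 0.39, adjusted p = 0.108) for the second. The call of the first was lost in 11 of the 15 alternatives. Without P21 replicate 3 the second passed (adjusted p = 0.0377), but its remaining P21 signals, 29.5 and 11.8, were at background and give no measured size. At P14 against P7 the second was lower by -1.53 (adjusted p = 0.0152), a call lost when either P14 array was left out (-1.66 without replicate 1 and -1.40 without replicate 2).

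Cd24a went the other way. It encodes a lipid-anchored surface glycoprotein known from immature neurons, and also from ependymal and blood cells. Its 3 probe sets were higher at P21 than at P7, which is opposite to the other 9 genes and to the label of an immature neuron gene. The signals of 1416034_at were 1158, 1000.1 and 1080 at P7, 1710 and 1371 at P14, and 1982, 2104 and 2001 at P21. The ages were separate and rising in order. The P21 mean of 2029 ± 65.4 (SD, n = 3) was 188% of the P7 mean of 1079 ± 78.9 (SD, n = 3), a log2 change of 0.90 (limma adjusted p = 8.69e-05, SE 0.10). At P14 against P7 it was higher by 0.50 (SE 0.11, adjusted p = 0.00863), which without P14 replicate 1 was 0.34 (adjusted p = 0.108).

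The Cd24a probe set 1448182_a_at had 1786, 1365 and 1296 at P7, 1697 and 1523 at P14, and 2478, 2224 and 2282 at P21. The probe set 1437502_x_at had 487, 357 and 400.1 at P7, 498 and 458 at P14, and 770.0, 678 and 575 at P21. In both, all P21 arrays lay above all earlier ones while P14 and P7 overlapped. P21 was 157% of P7 for the first (log2 change 0.66, SE 0.12, limma adjusted p = 0.00182) and 163% for the second (0.69, SE 0.14, adjusted p = 0.00312). At P14 against P7 neither passed, with 0.13 (95% interval -0.17 to 0.43) and 0.21 (95% interval -0.14 to 0.56). The suffix of 1437502_x_at marks probes that resemble other sequences, so other transcripts may add to its signal.

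**Figure D2:**
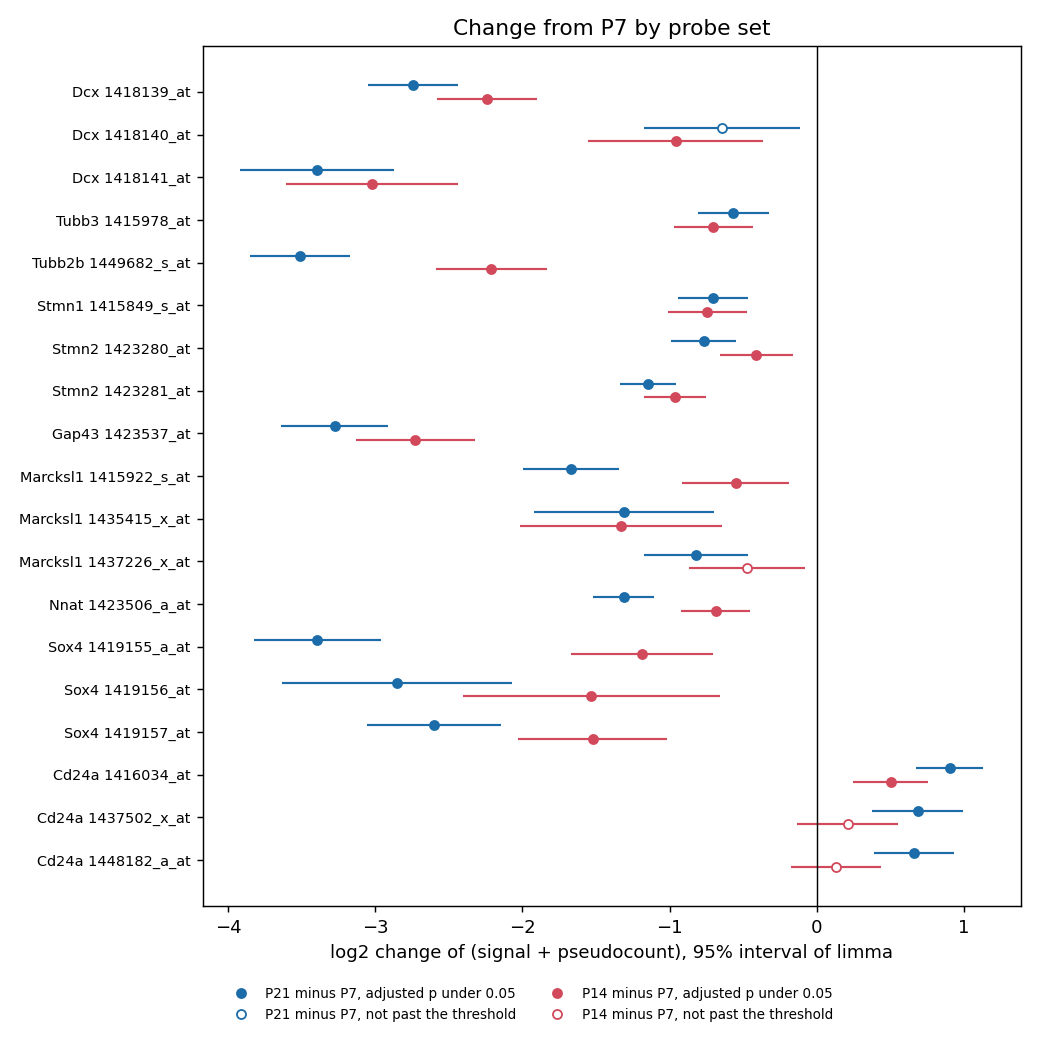
Log2 change from P7 to P21 (blue) and from P7 to P14 (red) of each probe set, with 95% intervals from limma; filled points passed an adjusted p of 0.05. The Dcx probe sets 1418139_at and 1418141_at and Gap43 have most of their change by P14, whereas the points for P21 lie well to the left of those for P14 for Tubb2b, Sox4 and Marcksl1 1415922_s_at.

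Comparison of P14 with P7 asked what had changed by the earlier of the later ages. Of the 19 probe sets, 15 were lower at P14 than at P7, against 16.7% of all probe sets tested, and 1 (Cd24a 1416034_at) was higher, against 12.9%. A fall of at least 1 on the log2 scale was found for 8 of the 19 and for 3.56% of all. Every P14 array lay below every P7 array in 16 of the 19, and in 34.5% of all probe sets. The median log2 change was -0.96 over the 19 and -0.07 over all. With quantile normalization 2060 of all probe sets were called lower and 2058 higher, against 2557 and 1967 in the main fit. Of the 19, 16 were then lower and 1 higher. With only 2 arrays at P14, the count of 16 calls was 10 without P14 replicate 1 and 12 without P14 replicate 2, where the lone P14 array is assumed to vary like the other ages.

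Comparison of P21 with P14 asked what changed later. Lower at P21 than at P14 were 5 of the 19, against 1.2% of all probe sets tested, and these were Tubb2b, Marcksl1 1415922_s_at, Nnat and the Sox4 probe sets 1419155_a_at and 1419157_at. The same 5 were the ones lower in both intervals, as were 0.438% of all. None of the 19 passed as higher in limma, against 0.843% of all, although at an unadjusted p under 0.05 the 3 of Cd24a were higher, against 10.4% of all, and 9 of the 19 were lower, against 9.05% of all. The median log2 change was -0.36 over the 19 and 0.03 over all. All 5 calls were lost without P14 replicate 2, 3 of them without P14 replicate 1, and the count was 3 without P21 replicate 2. Sox4 1419157_at kept its call in 4 of the 15 alternatives, and the other 4 probe sets in 9 to 13 of them.

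**Figure D3:**
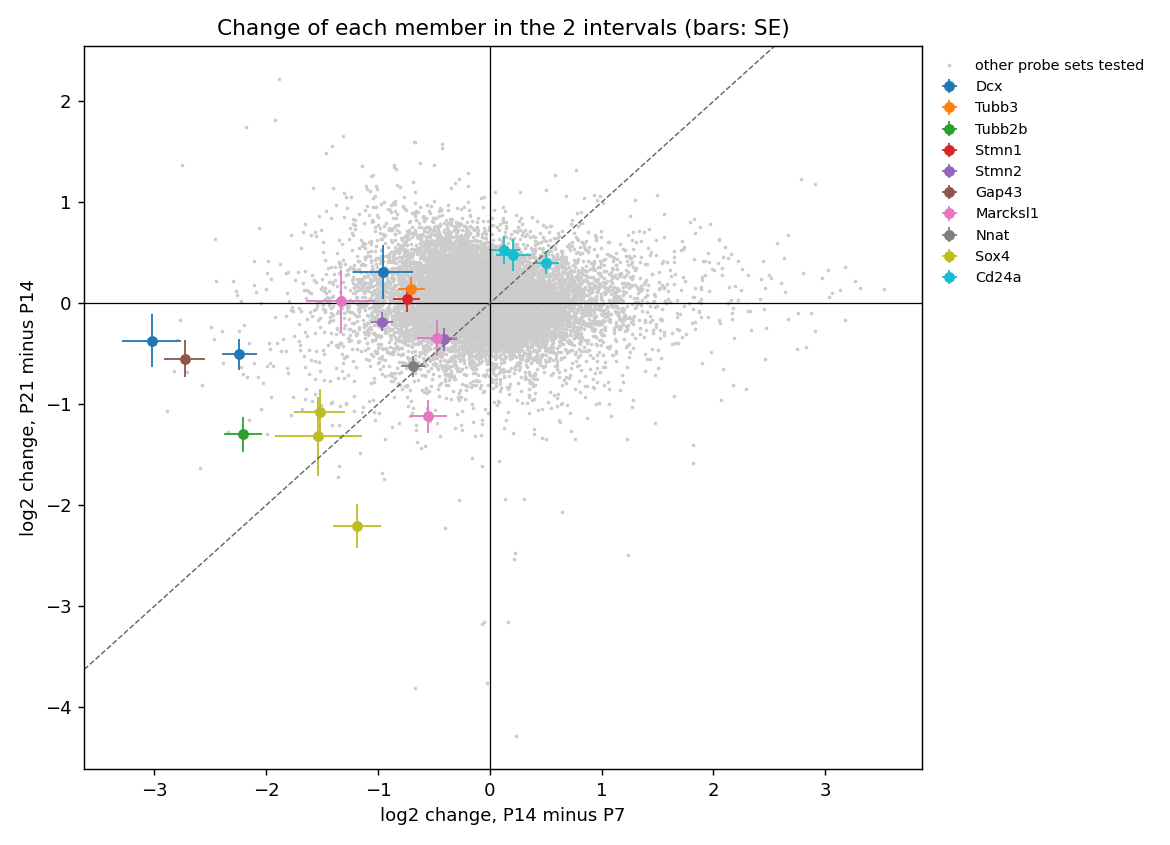
Log2 change from P14 to P21 (vertical) against log2 change from P7 to P14 (horizontal) for the members (coloured by gene, bars give the SE) and all other probe sets tested (grey), with the dashed line where both are equal. Dcx (1418139_at and 1418141_at) and Gap43 lie far to the left and close to the horizontal axis, Sox4 1419155_a_at lies lowest of the members at -2.21, and Cd24a lies above the axis.

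Whether a gene changed by unequal amounts in the 2 intervals was tested as the change from P7 to P14 minus that from P14 to P21. This test was passed by 5 of the 19, against 8.01% of all probe sets tested. The difference was -2.65 (limma adjusted p = 0.0122, SE 0.47) for Dcx 1418141_at, -1.74 (SE 0.27, adjusted p = 0.00808) for Dcx 1418139_at and -2.18 (SE 0.33, adjusted p = 0.00688) for Gap43. Tubb3 (-0.84, SE 0.22, adjusted p = 0.0431) and Stmn2 1423281_at (-0.78, SE 0.17, adjusted p = 0.0243) also passed, whereas the other Stmn2 probe set, 1423280_at, had -0.05 (95% interval -0.50 to 0.39, adjusted p = 0.902). Of 15 alternatives, Tubb3 kept its call in 6, Stmn2 1423281_at in 9, Dcx 1418139_at in 12, and Dcx 1418141_at and Gap43 in 13 each. In all 5 the negative sign means that the change was more negative in the earlier interval. For Tubb3 the later change was 0.14 (95% interval -0.13 to 0.40), so there the difference does not compare 2 falls. For Sox4 1419155_a_at the difference had the opposite sign, 1.02 (95% interval 0.16 to 1.88), and did not pass (adjusted p = 0.132), and for Tubb2b it was -0.91 (95% interval -1.59 to -0.24, adjusted p = 0.0946). No member passed in limma without P14 replicate 1, where 7 had an unadjusted p under 0.05, while 2 passed without P14 replicate 2 and 3 without P7 replicate 2. The difference for Dcx 1418141_at was -1.81 without P14 replicate 1 and -3.50 without P14 replicate 2.

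The part of the log2 change from P7 to P21 that was reached by P14 gives the timing as a ratio, with its range when each array was left out in turn. It was 0.891 (0.766 to 1.01) for Dcx 1418141_at, 0.816 (0.788 to 0.849) for Dcx 1418139_at, 0.833 (0.743 to 0.922) for Gap43 and 0.841 (0.796 to 0.868) for Stmn2 1423281_at. The other Stmn2 probe set, 1423280_at, had reached 0.533 (0.469 to 0.597). A value above 1 means a larger change at P14 than at P21. Tubb3 stood at 1.24 (1.135 to 1.43) and Dcx 1418140_at at 1.49 (1.084 to 1.869). Stmn1 stood at 1.05 (0.941 to 1.204) and Marcksl1 1435415_x_at at 1.02 (0.536 to 1.499). The ranges of Stmn1 and Marcksl1 1435415_x_at lay on both sides of 1, so for them the larger change at P14 depended on single arrays. Tubb2b had reached 0.63 (0.560 to 0.699) and Nnat 0.523 (0.451 to 0.594). The Sox4 probe sets had reached 0.350 (0.292 to 0.408), 0.537 (0.464 to 0.631) and 0.586 (0.504 to 0.667), Marcksl1 1415922_s_at 0.329 (0.302 to 0.373) and Marcksl1 1437226_x_at 0.575 (0.444 to 0.737). For Cd24a, which rose, the values were 0.555 (0.380 to 0.730) for 1416034_at, 0.305 (0.187 to 0.408) for 1437502_x_at and 0.198 (0.0734 to 0.339) for 1448182_a_at. The ranges of Dcx 1418139_at and 1418141_at and of Gap43 lay above those of Tubb2b, Nnat, Sox4 and Marcksl1 1415922_s_at, and the difference between genes was not tested.

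**Figure D4:**
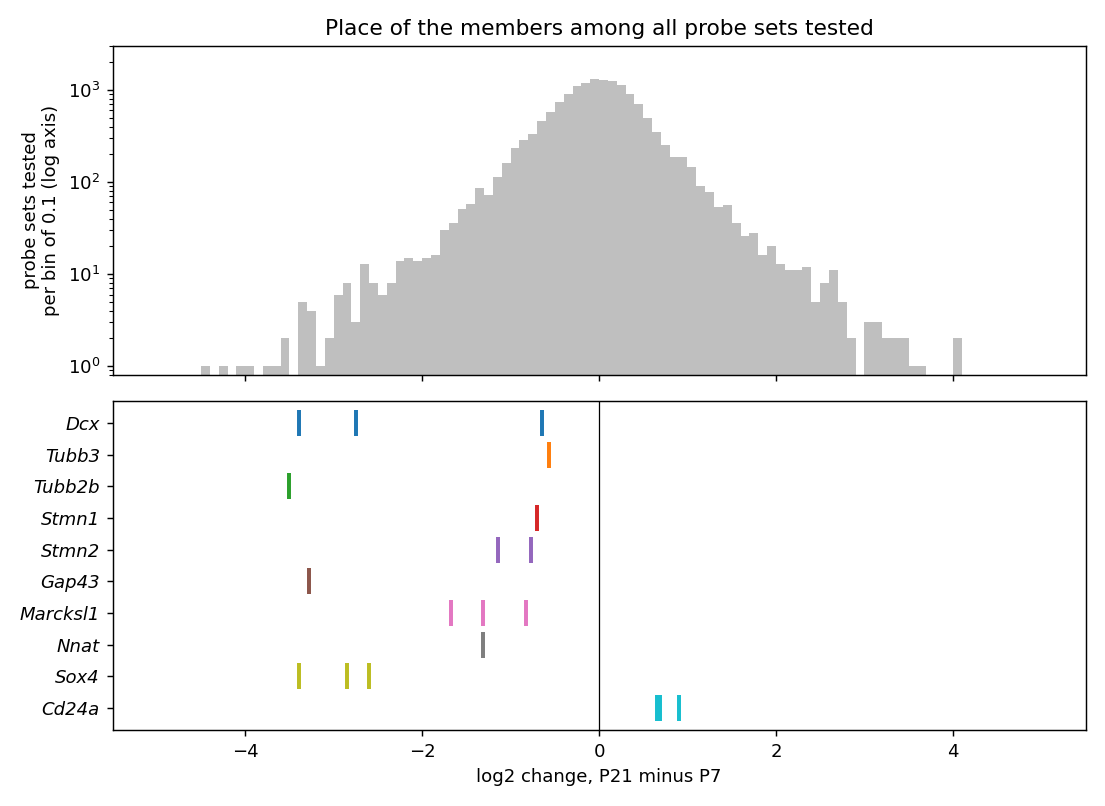
Upper panel: number of probe sets tested per bin of the log2 change from P7 to P21 (log axis). Lower panel: the same change for each member, 1 row per gene. The probe sets of Tubb2b, Gap43 and Sox4 and 2 of Dcx lie in the low tail between -2.60 and -3.51, Dcx 1418140_at, Tubb3 and Stmn1 lie between -0.57 and -0.70, and Cd24a lies between 0.66 and 0.90.

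Among the bacterial control transcripts, one was high on each array, and which one it was differed between and within ages. It was the same on 1 array of each age, namely P7 replicate 3, P14 replicate 2 and P21 replicate 1. Within these 3 arrays, 16 of the 19 probe sets were lower at P21 than at P7 and the 3 of Cd24a were higher, with a median log2 difference of -1.40, without replicates and so without a test. Over all probe sets tested 51.9% were lower and 48.1% higher there. For P21 against P14, 14 of the 19 were lower and 5 higher (median -0.65), against 46.8% and 53.2% of all. For P14 against P7, 16 of the 19 were lower within these arrays (median -0.71), as were 16 within the other arrays that shared a control transcript, 1 at P14 and 2 at P7 (median -0.95). In either set 56.4% of all probe sets were lower.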

How the data were processed

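The tables were the series' deposited matrix of 8 oligonucleotide arrays. It holds intensity values, 1 per probe set and array, as deposited by the authors, and GCOS is named without a version per the submitters' processing notes. The 2%-trimmed mean was 250.1 on every array, so scaling to it changed no array by more than 0.00295%, and printed signals are as deposited. The 64 control probe sets were left out, as were those averaging under 50.0, which is 0.2 of that trimmed mean, leaving 15296.

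The log2 values were computed from the deposited intensities as log2(signal + 12.5), with a pseudocount of 0.05 of the trimmed mean. Changes are on that scale and understate those of dim probe sets. A single limma model (limma 3.58.1, R 4.3.3, eBayes with a trend, 5 residual degrees of freedom) held the 8 arrays. Its contrasts were tested two-sided, with Benjamini-Hochberg adjustment over all 15296 and a call at an adjusted p under 0.05. The procedure was tested on simulated data. Alternatives were other pseudocounts, no filter, quantile normalization, no trend, the replicate number or the bacterial control transcript as a block, and each array left out.

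There is no read depth for arrays, and their number limits the precision. All 19 members are named, and probe sets of a gene are kept apart. Members and lists were chosen with earlier results of these data known. Lists of related genes, cell type markers and genes with patterns like that of Dcx had been written down, but no table used here names other probe sets, so they were not run and the tissue was not checked against its markers. The spotted cDNA arrays of P7 and P21 were not used here for the same reason. One P21 label counts 2 replicates and others 3, and all 3 arrays were used.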

Additional observations from a re-analysis of the deposited data

Results flagged for a closer look

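In 5 of the 19 probe sets the earlier interval (P7 to P14) held a more negative change than the later one (P14 to P21), by the test of that difference in limma. The difference (first interval minus second, log2) was -2.65 for Dcx 1418141_at, -1.74 for Dcx 1418139_at, -2.18 for Gap43 1423537_at, -0.84 for Tubb3 1415978_at and -0.78 for Stmn2 1423281_at. The direction was the same in all 15 alternatives, but the call was lost in 9 of them for Tubb3, in 6 for Stmn2 1423281_at, in 3 for Dcx 1418139_at and in 2 each for Dcx 1418141_at and Gap43. None of the 5 passed in limma with the bacterial control as a block (8 of the 19 at an unadjusted p under 0.05) or without P14 replicate 1 (7 of the 19). With an array left out the value ran from -3.50 to -1.81 for Dcx 1418141_at and from -2.76 to -1.60 for Gap43. Ages with 2 or 3 arrays were too small for a check of single arrays that stand apart.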

How the results depend on the processing

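For P21 against P7, 281 of 285 values (19 probe sets under 15 alternatives) kept direction and side of the threshold, and none reversed. Both were also kept by 265 of 285 at P14 against P7, 248 of 285 at P21 against P14 and 139 of 165 for the difference between intervals. In 3 probe sets, 10 values at P21 against P14 reversed. For Marcksl1 1435415_x_at (0.02) they were -0.0060 with a pseudocount of 0.2 of the trimmed mean, -0.051 with quantile normalization, -0.060 with the replicate block, -0.35 with the bacterial control as a block, and -0.61 to 0.65 with an array left out. Stmn1 (0.04) had -0.16 with the bacterial control as a block and -0.047 to 0.13 with an array left out, and Dcx 1418141_at (-0.37) had -0.79 to 0.051. Counts of calls at P21 against P14 (313 probe sets, 5 members) were 109 and 3 without a filter, 121 and 3 without the trend, 0 and 0 with the bacterial control as a block (2070 and 13 at an unadjusted limma p under 0.05), and 0 to 463 and 0 to 6 with an array left out (none passed without P14 replicate 2, where 1757 and 9 had an unadjusted p under 0.05). For the difference between intervals (1225 and 5) they were 793 and 3 without the trend, 68 and 0 with the bacterial control as a block (8 members at an unadjusted p under 0.05), and 53 to 1170 and 0 to 5 with an array left out. At P14 against P7 (4524 and 16) they were 2378 to 4771 and 10 to 17 with an array left out, and at P21 against P7 (5907 and 18) 1938 and 17 with the bacterial control as a block, where P21 rests on 1 array and 2 residual degrees of freedom remain. Same-numbered arrays of P7 and P21 correlated in their deviations at 0.28, -0.015 and 0.13, and differently numbered ones at -0.27 to 0.22. So few values cannot decide whether the numbers pair the arrays. With the replicate block, counts over all and over the members were 5966 and 18 at P21 against P7, 4406 and 16 at P14 against P7, 323 and 6 at P21 against P14, and 1177 and 5 for the intervals. Signals near background (up to 26.6) limit the sizes for Sox4 1419156_at and 1419155_a_at and for Dcx 1418140_at. The lowest signals of Dcx 1418141_at, Dcx 1418139_at, Gap43 and Sox4 1419157_at were 74.1, 89.7, 97.8 and 68.5, all at P21. These were close to the P7 signals of Dcx 1418140_at (75.1 to 114). The part of background in their changes and timing was not tested.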
